A study of Mus musculus with 4 samples.

Results

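The genes described here are Csf1, Csf1r, Csf2ra, Csf2rb, Csf3r and Maf, a growth factor, 4 receptor chains and a transcription factor that act on macrophages and other myeloid cells. They were chosen by name, with every probe set that the array annotation assigns to 1 of these symbols alone, which gave 6 of 12393 genes and 12 of 20380 probe sets. Macrophages were sorted from mouse mammary glands as YFP-positive cells by flow cytometry, in 4 groups with 1 RNA sample and 1 Affymetrix array each. The groups were Ets2-deficient macrophages from early-stage PyMT tumors, in which 2 copies of the gene for the ETS-family transcription factor Ets2 were deleted; Ets2-expressing macrophages from such tumors; macrophages with the same 2-copy deletion from remodeling glands without tumor; and Ets2-expressing macrophages from remodeling glands. PyMT is the polyoma middle T oncogene, used to drive mammary tumors in mice. The labels call the tumor control wild type in its title and give it 1 copy of Ets2 in its source, whereas the remodeling control is called wild type in both, so the controls may differ in gene dose. The labels do not name what drives YFP or the deletion, the strain, the age or the number of animals behind each sample.

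Colony-stimulating factors are secreted proteins that keep myeloid cells alive and drive their growth and differentiation. Csf1 signals through the receptor tyrosine kinase Csf1r, on which most tissue macrophages depend. Csf2, the granulocyte-macrophage factor, binds the alpha chain Csf2ra, which signals with the shared chain Csf2rb through the kinase Jak2 and the transcription factor Stat5. Csf3, the granulocyte factor, binds Csf3r, best known on neutrophils. Maf is a basic leucine zipper transcription factor, expressed in macrophages and in subsets of T cells.

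The groups differ in a factor of the ETS family, whose members bind DNA at sites with a GGAA core. Promoter windows were searched for exact sequences that hold this core, not for every GGAA. RefSeq promoter windows (build GRCm38.p6, 250 bases before to 50 after the annotated start) are given here for 3 of the 6 genes. They lie at chr3:107760420-107760719 on the minus strand for Csf1, at chr19:61228369-61228668 on the minus strand for Csf2ra and at chr4:126024409-126024708 on the plus strand for Csf3r. RefSeq places the Csf3r gene at 126023441 to 126044975, so its window lies inside the gene and not at its first base. Capitals mark GAGGAA on either strand. GGAAGT, which can overlap it, was searched as well and was found in none of the 3. GGAA in other contexts, which the Csf1 window also holds, was neither searched for nor marked. Windows of the other members are not given, which does not show that these genes lack an annotated promoter or such sites.
Csf1: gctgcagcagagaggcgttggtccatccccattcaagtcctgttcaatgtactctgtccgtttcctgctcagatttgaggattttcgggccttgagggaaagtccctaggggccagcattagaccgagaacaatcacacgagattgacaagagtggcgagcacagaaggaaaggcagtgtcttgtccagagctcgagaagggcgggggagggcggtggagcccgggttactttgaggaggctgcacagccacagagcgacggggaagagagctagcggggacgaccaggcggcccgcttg
Csf2ra: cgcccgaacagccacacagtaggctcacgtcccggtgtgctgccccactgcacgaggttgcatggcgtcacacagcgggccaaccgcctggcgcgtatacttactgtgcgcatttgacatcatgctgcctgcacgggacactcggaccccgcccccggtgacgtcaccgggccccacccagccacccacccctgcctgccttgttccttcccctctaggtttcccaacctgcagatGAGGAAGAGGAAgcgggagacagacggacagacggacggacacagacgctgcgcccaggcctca
Csf3r: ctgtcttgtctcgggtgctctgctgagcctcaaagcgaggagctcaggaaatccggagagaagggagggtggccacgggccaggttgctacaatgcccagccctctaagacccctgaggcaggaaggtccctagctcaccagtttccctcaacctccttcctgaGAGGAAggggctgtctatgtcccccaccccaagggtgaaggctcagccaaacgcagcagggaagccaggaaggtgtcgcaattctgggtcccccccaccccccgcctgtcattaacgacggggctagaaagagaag
GAGGAA occurred 2 times in the Csf2ra window, in direct succession at -14 and -8 from the start, and 1 time in the Csf3r window, at -86. It was found in 28.3% of 32851 promoter windows of the same length, and GGAAGT in 23.8%. The Csf3r window also held 1 match each to TGCTGA, part of the Maf recognition element (19.5% of windows), and to the Runx motif TGNGGT (45.8%), whereas the other windows held neither. These are letter matches and do not show binding.

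Values are log2 expression as deposited, and no test was possible with a single array in each group, so "higher" and "lower" describe these arrays only. A difference was called when it was at least 2-fold and the brighter array reached its own median over all probe sets, which was 6.30 for tumor Ets2-deficient, 6.22 for tumor Ets2-expressing, 5.98 for remodeling Ets2-deficient and 6.17 for remodeling Ets2-expressing. The 25th percentiles, from 4.27 to 4.32, served as the mark of background. The only error available was how far bright probe sets of a gene disagreed in their differences, whose pooled SD was 0.338 log2 in the tumor Ets2 comparison, 0.278 in the remodeling Ets2 comparison, 0.410 for tumor minus remodeling within the Ets2-expressing label and 0.320 within the Ets2-deficient label. It covers neither animals nor sorts nor amplification. Ets2 itself read 12.67 and 12.77 on the tumor Ets2-deficient and Ets2-expressing arrays and 12.97 and 13.24 on the remodeling ones, so its probe set did not check the labels, and which exons were deleted is not in the labels. The 8 macrophage markers, Adgre1, Cd68 and Csf1r itself among them, lay at or above the median of every array, with list medians from 12.01 to 12.24. The 10 mammary epithelial markers had list medians of 9 and 7.92 on the tumor Ets2-deficient and Ets2-expressing arrays, against 4.89 and 5.67 on the corresponding remodeling arrays.

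Csf1 was brightest in Ets2-expressing macrophages from remodeling glands. Its brightest probe set, 1460220_a_at, read 7.28 on the tumor Ets2-deficient array, 7.20 on the tumor Ets2-expressing array, 7.48 on the remodeling Ets2-deficient array and 8.35 on the remodeling Ets2-expressing array. The first 3 values lay within 0.275 log2 of each other, which is below the pooled spread between probe sets in each of the comparisons, and the fourth stood apart from them. Tumor minus remodeling within the Ets2-expressing label was -1.14 log2, a level 2.21-fold lower in tumor macrophages. It was the 1 member called of 5 bright enough to count there, where 5.2% of all 7253 bright genes were called lower, and 620 of them, Csf1 included, differed by as much or more in either direction. The call was lost when all 4 Csf1 probe sets were averaged (-0.77) and when the brighter array had to reach its 75th percentile.

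The other Csf1 probe sets, although dim, were also brightest on the remodeling Ets2-expressing array. 1448914_a_at read 5.42 and 5.64 on the tumor Ets2-deficient and Ets2-expressing arrays and 5.39 and 6.47 on the remodeling Ets2-deficient and Ets2-expressing arrays. Only the last of these reached its array median. In remodeling macrophages the Ets2 difference, deficient minus expressing, was -1.08 for this probe set and -0.87 for 1460220_a_at, and over all 4 probe sets it ran from -1.08 to -0.36. The gene was therefore not called by its brightest probe set, and 1448914_a_at was called among probe sets, of which 5.06% were called lower in this comparison. The call of 1448914_a_at was lost under median centring (-0.88) and under quantile normalization (-0.87). In tumor macrophages the same difference ran from -0.22 to 0.31 over the 4 probe sets, on both sides of 0.

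**Figure D1:**
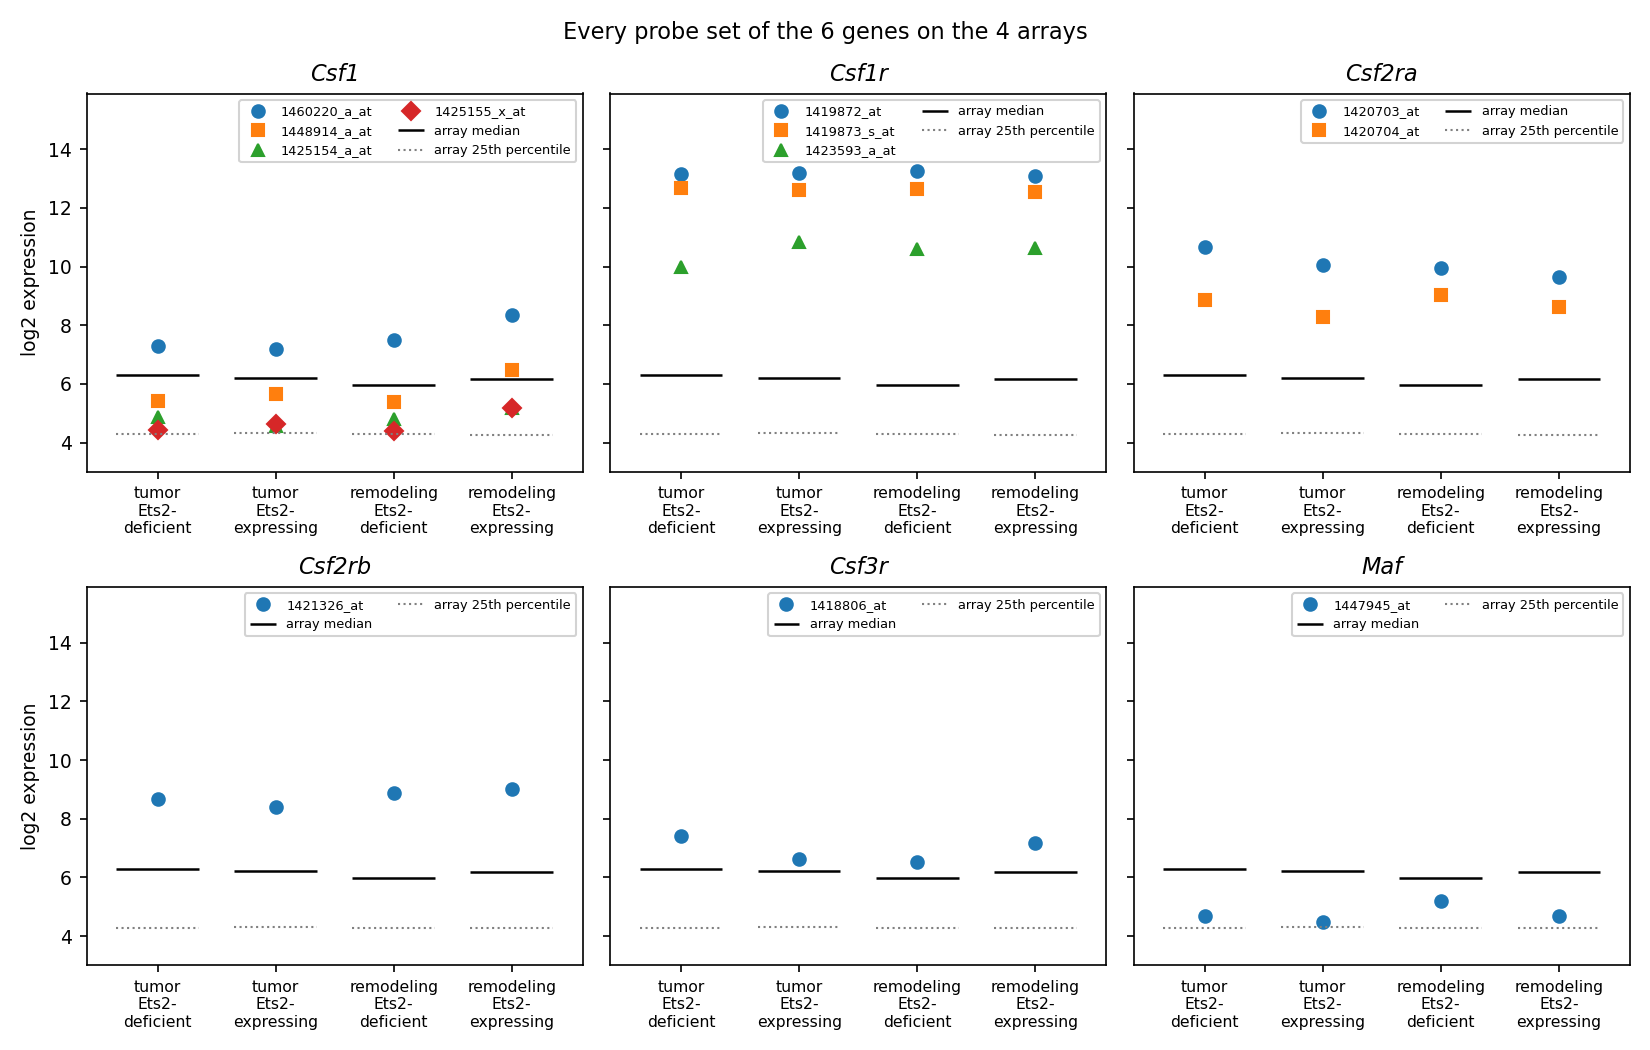
Log2 expression (vertical axis) of all 12 probe sets on the 4 arrays (horizontal axis), a panel for each gene and a symbol for each probe set, with the median and the 25th percentile of each array as lines. Csf1 is highest on the remodeling Ets2-expressing array in all 4 of its probe sets, Csf1r is nearly level in 2 of 3, and Maf lies below the median of every array.

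Fibroblast markers were also brightest on the array where Csf1 was. Of 9 measured fibroblast markers, 8 were highest on the remodeling Ets2-expressing array, where 22.0% of all genes had their highest value, and Thy1 was the exception. Their median level was 9.39 and 9.17 on the tumor Ets2-deficient and Ets2-expressing arrays, and 8.19 and 10.52 on the remodeling Ets2-deficient and Ets2-expressing arrays. None of the 9 lay below the 25th percentile of any array. Mast cell markers followed the same array in 7 of 9 genes, with the high-affinity IgE receptor chain Fcer1a below the 25th percentile on all 4. Their part in the Csf1 signal was not tested, and in sorted pools a smaller share of a cell type cannot be told apart from less RNA per cell.

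**Figure D2:**
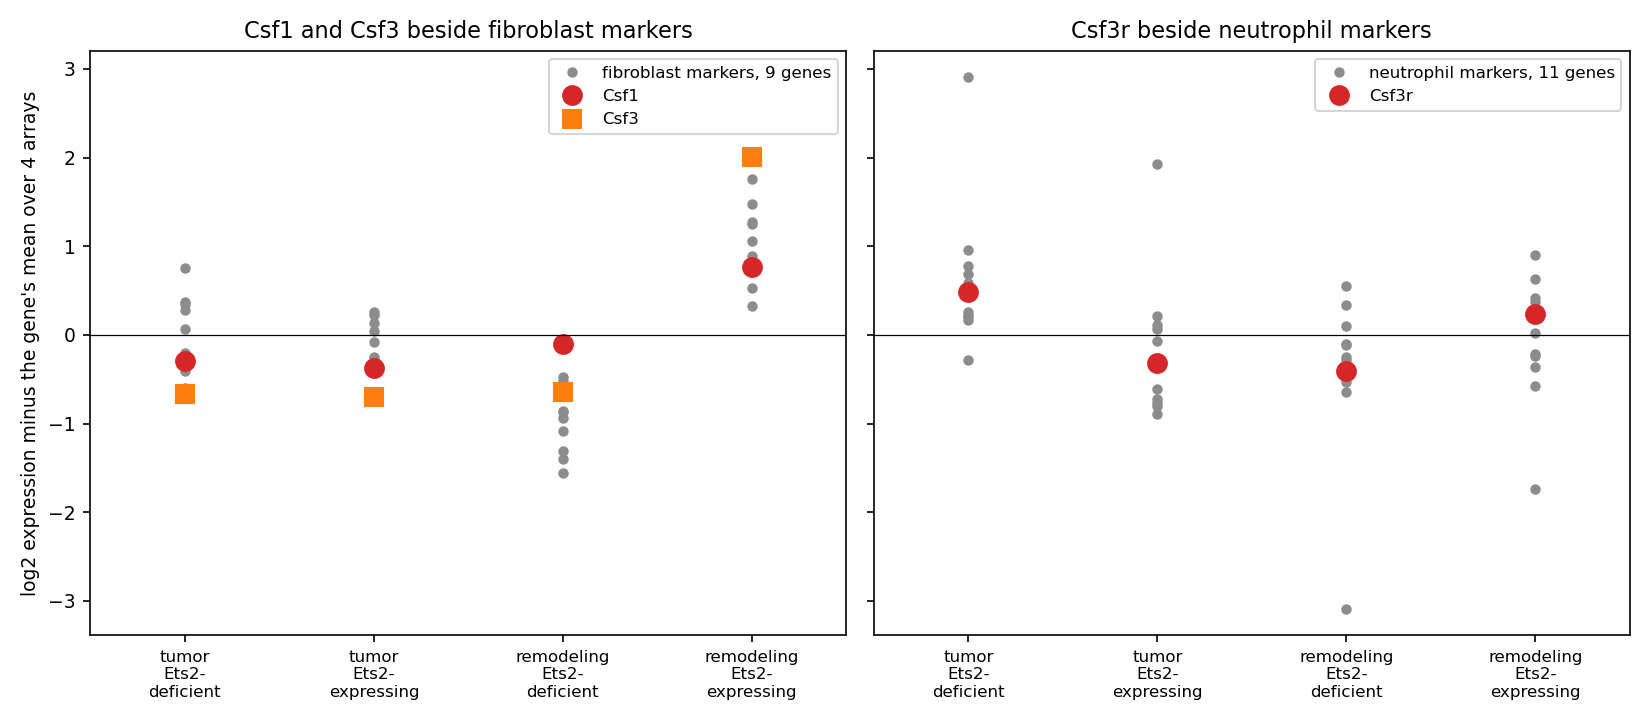
Log2 expression after taking off each gene's own 4-array mean (vertical axis) on the 4 arrays (horizontal axis), with fibroblast markers as grey points beside Csf1 and Csf3 on the left and neutrophil markers beside Csf3r on the right. Csf1, Csf3 and 8 of 9 fibroblast markers are highest on the remodeling Ets2-expressing array, and Csf3r lies above its own mean on the tumor Ets2-deficient and remodeling Ets2-expressing arrays.

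Csf1r, which encodes the receptor for Csf1, was bright and nearly level. Since the labels do not name what drives YFP, whether Csf1r was itself part of the sorting gate is not known. Its brightest probe set, 1419872_at, read 13.15 on the tumor Ets2-deficient array, 13.17 on the tumor Ets2-expressing array, 13.25 on the remodeling Ets2-deficient array and 13.09 on the remodeling Ets2-expressing array. 1419873_s_at read 12.68, 12.62, 12.66 and 12.53 in the same order of arrays. Across all 4 arrays these probe sets spanned only 0.156 and 0.152 log2, less than the pooled spread between probe sets in any comparison. Under median centring the Ets2 difference of 1419872_at in remodeling macrophages was 0.35, against 0.16 as deposited, and tumor minus remodeling within the Ets2-deficient label was -0.42, against -0.10.

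A further Csf1r probe set did not follow them on the tumor arrays. 1423593_a_at read 9.98 on the tumor Ets2-deficient array and 10.82 on the tumor Ets2-expressing array, and 10.61 and 10.64 on the remodeling Ets2-deficient and Ets2-expressing arrays. Its Ets2 difference in tumor macrophages was -0.84 log2, against -0.03 and 0.06 for the other probe sets. The SD of the 3 differences, 0.497, was above the median of 0.219 and below the 95th percentile of 0.651 over genes with several bright probe sets. In remodeling macrophages the 3 probe sets differed by -0.03 to 0.16. The gap between the 3' and 5' control probe sets of Actb, a measure of RNA integrity and amplification length, was 3.54 on the tumor Ets2-deficient array, 3.30 on the tumor Ets2-expressing array, 2.96 on the remodeling Ets2-deficient array and 2.72 on the remodeling Ets2-expressing array. The same gap for Gapdh was 2.27 and 2.45 on the tumor Ets2-deficient and Ets2-expressing arrays and 1.80 and 1.61 on the remodeling ones, and for Tfrc it was 5.27 and 5.03 on the tumor arrays and 5.96 and 5.75 on the remodeling arrays in that order. The 3 controls thus ordered the arrays differently: Gapdh was lower on the tumor Ets2-deficient than on the tumor Ets2-expressing array, and Tfrc was larger on the remodeling arrays. Their part in the split between Csf1r probe sets was not tested.

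Csf2ra, the ligand-binding chain of the Csf2 receptor, was brighter on the Ets2-deficient array in both settings and in both of its probe sets, by less than 2-fold. 1420703_at read 10.65 and 10.05 on the tumor Ets2-deficient and Ets2-expressing arrays and 9.97 and 9.63 on the remodeling Ets2-deficient and Ets2-expressing arrays. 1420704_at read 8.86 and 8.28 on the tumor arrays and 9.02 and 8.61 on the remodeling arrays in the same order. The Ets2 differences, deficient minus expressing, were 0.60 and 0.58 in tumor macrophages and 0.33 and 0.42 in remodeling macrophages, all above the pooled spread between probe sets. In tumor macrophages 1044 of 7225 bright genes differed by as much as Csf2ra or more, and in remodeling macrophages 2494 of 7095 did.

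The 2 Csf2ra probe sets did not give the same order between tumor and remodeling glands. Tumor minus remodeling was 0.42 within the Ets2-expressing and 0.69 within the Ets2-deficient label by 1420703_at, against -0.33 and -0.17 by 1420704_at. No direction is given for Csf2ra between the settings. Of 6 measured dendritic cell markers, 1 lay above 0 in the tumor Ets2 comparison and 4 in the remodeling one, with medians of -0.28 and 0.07.

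Csf2rb, the signaling chain shared by the receptors for Csf2, Il3 and Il5, was bright on every array and differed little with the Ets2 label. Its only probe set of its own, 1421326_at, read 8.68 on the tumor Ets2-deficient array, 8.39 on the tumor Ets2-expressing array, 8.89 on the remodeling Ets2-deficient array and 9.03 on the remodeling Ets2-expressing array. With the Ets2 label it differed by 0.29 in tumor macrophages and by -0.14 in remodeling macrophages, both within the pooled spread between probe sets, and the remodeling value turned to 0.05 when arrays were centred on their medians. On the Ets2-expressing arrays it was lower in tumor than in remodeling macrophages by a log2 difference of -0.64, larger than the pooled spread, and on the Ets2-deficient arrays the difference was -0.20. Under median centring these differences were -0.68 and -0.52, and under quantile normalization -0.63 and -0.23.

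Mice carry a close relative of this gene, Csf2rb2, whose product serves the Il3 receptor alone. Csf2rb lies on chromosome 15 at 78325800 to 78351001 and Csf2rb2 next to it at 78282507 to 78305721 (GRCm38.p6). Csf2rb2 read 11.19 and 10.70 on the tumor Ets2-deficient and Ets2-expressing arrays and 11.07 and 11.01 on the remodeling ones. A probe set assigned to both genes read from 5.79 to 6.10 and stayed below the median of every array. The genes are similar in sequence, and how far each probe set picks up the other gene is uncertain.

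Csf3r, the receptor for the granulocyte factor, was brightest on the tumor Ets2-deficient array and on the remodeling Ets2-expressing array, so its difference with the Ets2 label had opposite signs in the 2 settings. Its only probe set, 1418806_at, read 7.41 on the tumor Ets2-deficient array and 6.61 on the tumor Ets2-expressing array. On the remodeling arrays it read 6.51 when Ets2-deficient and 7.16 when Ets2-expressing. The lower values of both settings lay 0.098 log2 apart, within the pooled spread between probe sets, and the higher ones 0.249 apart. Deficient minus expressing gave 0.80 in tumor macrophages, place 323 from the top of 7225 bright genes, and -0.65 in remodeling macrophages. Neither reached 2-fold. The tumor minus the remodeling difference came to 1.45 log2, called among the 8.5% of 7473 genes that were at least 1 log2 higher by this measure, and no longer counted when an array had to reach its 75th percentile. Under median centring it was 1.17 and under quantile normalization 1.26.

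Some neutrophil markers were bright on the same arrays as Csf3r. The difference of the Ets2 differences, tumor minus remodeling, was 2.12 for S100a8 and 2.01 for S100a9, which encode abundant neutrophil calcium-binding proteins, 2.19 for the chemokine receptor gene Cxcr2 and 2.12 for the decoy interleukin-1 receptor gene Il1r2. Cxcr2 read 8.05 and 6.98 on the tumor Ets2-deficient and Ets2-expressing arrays and 7.09 and 8.21 on the remodeling Ets2-deficient and Ets2-expressing arrays. The median over 11 measured neutrophil markers was 8.05 and 6.98 on the tumor arrays in that order, against 5.49 and 5.87 on the remodeling arrays. These were the readings of single markers: Cxcr2 on both tumor arrays, Ngp on the remodeling Ets2-deficient array and Ltf on the remodeling Ets2-expressing array. In the tumor Ets2 comparison 3 of 6 bright markers were called higher (S100a8, S100a9 and Cxcr2), and in the remodeling comparison 2 of 5 were called lower (Cxcr2 and Il1r2), where 2.99% and 6.48% of all bright genes were called in either direction. Mmp9, a bright marker that macrophages express too, did not follow them, with Ets2 differences of 0.015 in tumor and 0.52 in remodeling macrophages. Among the dim markers Ngp (0.91) and Camp (0.34) also lay above 0 in the remodeling comparison. The neutrophil elastase gene Elane lay below the 25th percentile on all 4 arrays, and Ltf, also a product of mammary epithelium, read 10.51 and 9.53 on the tumor arrays. The part of neutrophils in the Csf3r signal was not tested.

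Maf could not be ranked on these arrays. Its 1 probe set, 1447945_at, read 4.69 on the tumor Ets2-deficient array, 4.48 on the tumor Ets2-expressing array, 5.18 on the remodeling Ets2-deficient array and 4.69 on the remodeling Ets2-expressing array. All 4 values were above the 25th percentile and below the median of their array, so no difference was counted. Its differences reached 0.49 log2 in the remodeling Ets2 comparison and -0.49 for tumor minus remodeling within the Ets2-deficient label, which became 0.68 and -0.81 under median centring. A dim probe set does not show that the gene is silent, since probe sets differ in how well they bind their target.

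**Figure D3:**
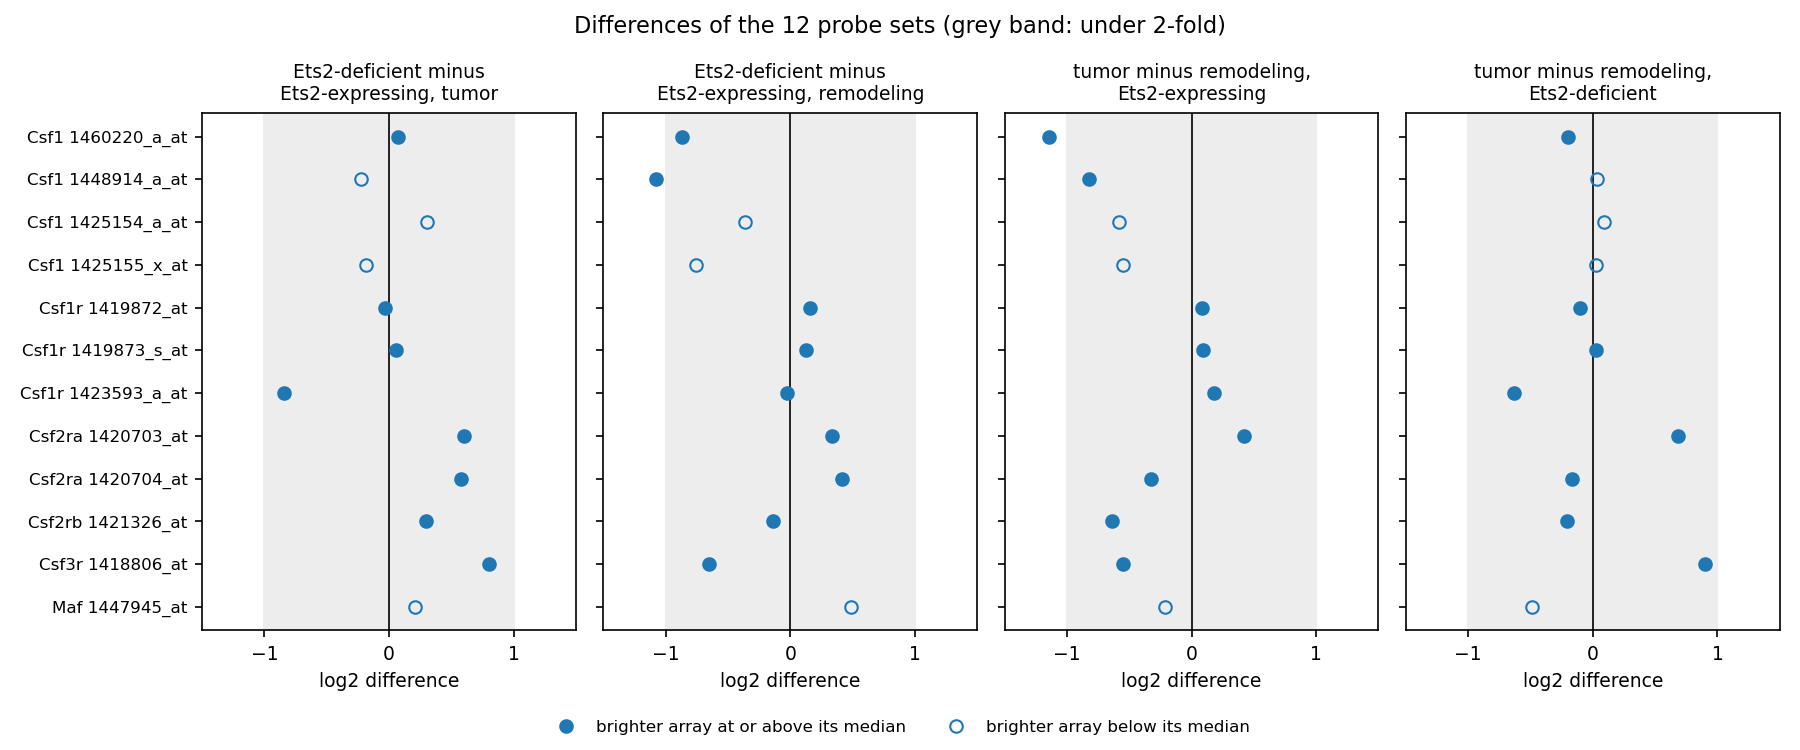
Log2 difference (horizontal axis) of the 12 probe sets (rows) in the 4 comparisons (panels), with the range under 2-fold in grey and open circles where the brighter array lay below its median. Only Csf1 leaves the grey band, by 1460220_a_at for tumor minus remodeling within the Ets2-expressing label and by 1448914_a_at in the remodeling Ets2 comparison.

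Taking the 6 genes by comparison, none was called in the tumor Ets2 comparison, where 2.99% of bright genes were called in either direction, and none in the remodeling Ets2 comparison, where 6.48% were. Likewise none was called for tumor minus remodeling within the Ets2-deficient label, where 9.22% of genes were called. In each comparison 5 of the 6 were bright enough to count, all but Maf. With a limit of 1.5-fold, 2 members passed in each comparison. They were Csf2ra and Csf3r in the tumor Ets2 comparison, where 15.3% of bright genes passed, and Csf1 and Csf3r in the remodeling one, where 16.3% did. Between the settings they were Csf1 and Csf2rb within the Ets2-expressing label (29.8% of genes), and Csf2ra and Csf3r within the Ets2-deficient label (23.7%). For the difference of the Ets2 differences, tumor minus remodeling, they were Csf1 (0.94) and Csf3r, where 28.1% of genes passed. The median over the 6 was 0.25 in the tumor Ets2 comparison and 0.01 in the remodeling one, against 0 and 0.04 over all genes. For tumor minus remodeling it was -0.38 within the Ets2-expressing and -0.15 within the Ets2-deficient label, against 0.08 and 0.01 over all genes.

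Among 8 further ligands and receptors of these families, the ligands were dim. Csf3, the ligand of Csf3r, was the only ligand of this list to reach the median of an array, and it did so on a single one. It read 4.10 on the tumor Ets2-deficient array, 4.07 on the tumor Ets2-expressing array, 4.13 on the remodeling Ets2-deficient array and 6.77 on the remodeling Ets2-expressing array. The differences of -2.65 in the remodeling Ets2 comparison and -2.70 for tumor minus remodeling within the Ets2-expressing label are against background, so their sizes are not exact. The array on which Csf3 was detected was also the brightest for Csf1 and for 8 of the 9 fibroblast markers.

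Csf2 read 4.10 and 3.83 on the tumor Ets2-deficient and Ets2-expressing arrays and 4.21 and 4.81 on the remodeling ones, below the median of each. Il34, the other ligand of Csf1r, lay below the 25th percentile of all 4 arrays, with values from 3.95 to 4.07. Il5ra, the receptor chain for Il5 and a gene of eosinophils, read 4.85 and 4.96 on the tumor Ets2-deficient and Ets2-expressing arrays and 6.30 and 6.39 on the remodeling ones. Tumor minus remodeling was -1.43 within the Ets2-expressing and -1.45 within the Ets2-deficient label, beside -2.79 and -3.07 for the eosinophil chemokine receptor gene Ccr3 and -1.82 and -1.66 for Siglecf. Of 5 measured eosinophil markers, Il5ra included, these 3 were called lower in both comparisons and Prg2 stayed below the 25th percentile on all arrays. Of all bright genes, 5.2% were called lower within the Ets2-expressing label and 9.22% in either direction within the Ets2-deficient label. Il3ra, which read from 8.15 to 8.53, was not called anywhere.

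Most signaling genes downstream of Csf1r and its partner adaptor Tyrobp stayed under 2-fold. Of 20 measured genes, 18 were bright. On the Ets2-expressing arrays 3 of these were called higher in tumor than in remodeling macrophages and 1 lower, against 6.18% and 5.2% of all bright genes, and none of the 4 calls held at the 75th percentile limit. Dok1, an inhibitory docking protein, was higher by 1.15 log2, the Src-family kinase gene Fgr by 1.13 and Pik3cd, a catalytic subunit of phosphoinositide 3-kinase, by 1.02, a call that was lost under median centring. Shc1, an adaptor that links receptors to Ras, was lower, with a difference of -1.03. On the Ets2-deficient arrays none of the 18 was called, against 9.22% of all bright genes in either direction. Those 4 genes differed there by 0.12, 0.89, 0.31 and -0.11 in that order. The difference of the Ets2 differences, tumor minus remodeling, was called for Dok1 alone among the 18 (-1.04). The Ets2 comparisons had no call among the 18, against 2.99% of all bright genes in tumor and 6.48% in remodeling macrophages. The list medians were 0.11 in tumor and 0.12 in remodeling macrophages. Under median centring Dok1 was called in the remodeling Ets2 comparison, where it differed by 0.86 as deposited. Tyrobp itself read from 13.06 to 13.25, the adaptor Grb2 from 11.84 to 12.15 and Pik3cg from 11.07 to 11.40.

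In the Jak2 and Stat5 branch used by the Csf2 and Csf3 receptors, 11 of 12 genes were bright and 1 was called in the 4 comparisons. The call was in the remodeling Ets2 comparison, where 6.48% of all bright genes were called in either direction. Cish, a feedback inhibitor induced by Stat5, read 8.27 and 8.06 on the tumor Ets2-deficient and Ets2-expressing arrays and 7.87 and 9.05 on the remodeling ones. Deficient minus expressing gave 0.21 in tumor macrophages and -1.18 in remodeling macrophages, and the call in remodeling macrophages was lost under median centring. By the difference of the Ets2 differences, tumor minus remodeling, Cish (1.39) and the transcription factor gene Stat3 (1.199) were called higher, as were 8.5% of all genes. Mcl1, a survival factor, the kinase gene Pim1 and the feedback inhibitor Socs3 were bright throughout, and their Ets2 differences stayed between -0.17 and 0.05. The list median was 0.04 in the tumor Ets2 comparison, -0.16 in the remodeling one, and -0.38 and -0.16 for tumor minus remodeling within the Ets2-expressing and Ets2-deficient labels.

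**Figure D4:**
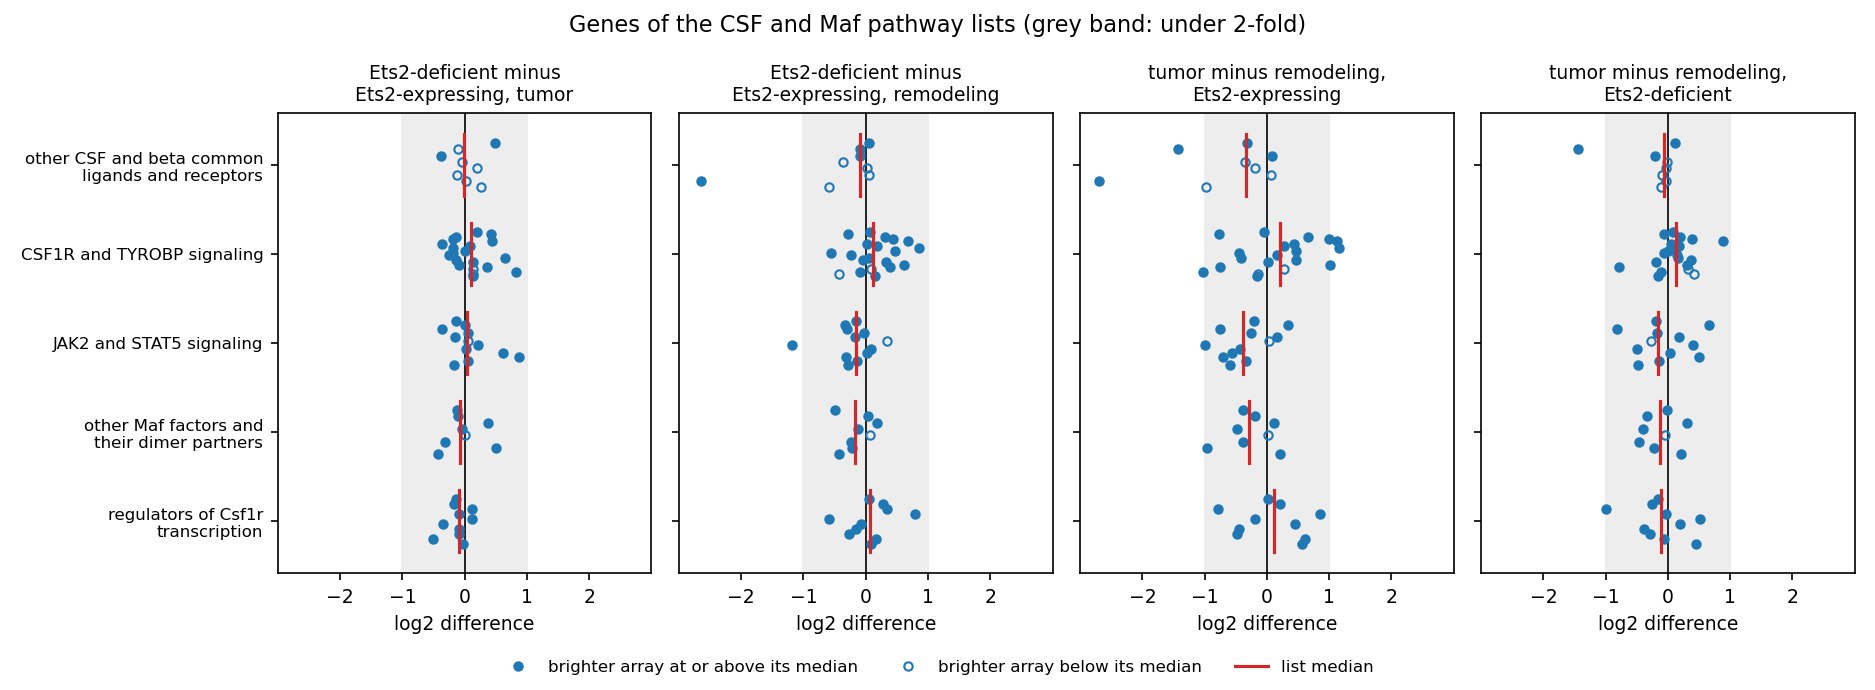
Log2 difference (horizontal axis) of each measured gene of 5 pathway lists (rows) in the 4 comparisons (panels), with list medians as red lines, the range under 2-fold in grey and open circles where the brighter array lay below its median. No gene leaves the grey band in the tumor Ets2 comparison, and Csf3 lies furthest out in the remodeling Ets2 comparison and for tumor minus remodeling within the Ets2-expressing label.

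The other Maf factors and their dimer partners stayed under 2-fold in all 4 comparisons, with 7 of 8 measured genes bright. Of all bright genes, 2.99% were called in the tumor and 6.48% in the remodeling Ets2 comparison, in either direction. For tumor minus remodeling, 6.18% were called higher and 5.2% lower within the Ets2-expressing label. Within the Ets2-deficient label 9.22% were called in either direction. With 7 genes counted, a lack of calls does not set this list apart. Mafk, a small Maf protein without an activation domain, read 10.49 and 10.80 on the tumor Ets2-deficient and Ets2-expressing arrays and 10.94 and 11.18 on the remodeling ones. Mafg, a further small Maf gene, read 8.57 and 8.06 on the tumor arrays and 8.80 and 9.03 on the remodeling arrays in that order. Its dimmer probe set gave -1.25 for tumor minus remodeling within the Ets2-expressing label, against -0.96 for the brighter one. Mafg was called in that comparison under median centring and when probe sets were averaged. Bach1, a repressor that pairs with small Maf proteins, read from 11.95 to 12.48, and Nfe2l2, the activator of antioxidant genes that pairs with them as well, from 10.00 to 10.50.

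All 10 measured regulators of Csf1r transcription were bright, and 1 was called. That call was for tumor minus remodeling within the Ets2-deficient label, where 9.22% of all bright genes were called in either direction. Irf4, a transcription factor of alternatively activated macrophages and of lymphocytes, read 10.73 and 10.61 on the tumor Ets2-deficient and Ets2-expressing arrays and 11.73 and 11.39 on the remodeling ones. Its tumor minus remodeling difference on the Ets2-deficient arrays was -1.003, at the limit of the call, which was lost when probe sets were averaged, and -0.78 on the Ets2-expressing arrays. Fos and Jun, subunits of the AP-1 factor, read from 12.42 to 12.85 across both genes and all arrays. The list median was -0.09 in the tumor and 0.07 in the remodeling Ets2 comparison.

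Genes whose 4 values ran most nearly parallel to a member were sought for the 2 members that spanned at least 1 log2, by the root mean square difference over the 4 arrays after taking off each gene's own mean. For Csf1 the nearest of 7472 genes were Arrdc4, an arrestin-domain gene (0.0317 log2), Map2k3, a kinase that activates p38 (0.0320), and the death receptor gene Fas (0.0429). Map2k3 read 8.49 and 8.45 on the tumor Ets2-deficient and Ets2-expressing arrays and 8.78 and 9.58 on the remodeling ones. For Csf2ra they were Naaa, a lysosomal amidase (0.0184), Ndufa6, a subunit of respiratory complex I (0.0385), and Narf (0.0404). With 4 arrays and 7472 genes, close matches of this kind are common.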

How the data were processed

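Macrophage RNA was measured on 4 Affymetrix arrays, 1 per group. Per the labels' protocols, about 10 ng of RNA was amplified with the NuGEN Ovation system and labelled with biotin. The authors deposited log2 expression for 22690 probe sets. GCOS and RMA appear in the submitters' processing notes, and what each did is not given in the sources used here. Values were used with no further scaling, and 0 per-sample columns were left out.

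Symbols came from the platform annotation: 20380 probe sets named 1 gene, and 20351 of these matched the RefSeq gene table (GRCm38.p6) by Entrez identifier. A gene was represented by its probe set with the highest mean, 12393 genes in all. Calls needed a 2-fold difference and a brighter array at or above its 50th percentile. Depth has no meaning here, and the number of arrays limits the precision. Levels of different probe sets were compared to choose a gene's representative, to give list medians and to name the brightest genes. Differences were taken within a probe set. The procedure was tested on simulated data.

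A further planned gene list is not reported here. The members and gene lists were chosen with earlier results of these data known. Named are all members, Csf2rb2, up to 4 called and 3 brightest genes of each pathway list, the markers needed to describe a list, and the 3 genes nearest in pattern to a member. Csf2, Il34 and Mafg were named after their values were seen. Alternatives were median centring, quantile normalization, other brightness limits, a 1.5-fold call and other probe set rules. Python 3.11.15, numpy 2.4.6, pandas 2.3.3 and matplotlib 3.10.9 were used.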

Additional observations from a re-analysis of the deposited data

Results flagged for a closer look

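Csf3r stood out because its Ets2-deficient minus Ets2-expressing difference was positive in tumor macrophages (0.80) and negative in remodeling macrophages (-0.65), each larger than the pooled spread between probe sets of its comparison. The tumor minus the remodeling difference was 1.45 log2. With 1 array per group the difference between settings was not tested.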

How the results depend on the processing

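With 1 array per group no replicate could be left out. No paired analysis was possible because each group holds 1 sample. Of 210 log2 differences of members under the alternatives, 209 moved by less than the pooled spread between probe sets and none that was called changed sign. The exception was Csf2ra for tumor minus remodeling within the Ets2-deficient label, 0.69 in the main analysis and 0.26 as the mean over its probe sets. Many of the 210 could not move, since brightness limits and the 1.5-fold call leave a difference as it is. Choosing the probe set with the highest value on any array left every member's difference unchanged. Averaging cannot move Csf2rb, Csf3r or Maf, which have 1 probe set each. Averaging probe sets left 0 members called for tumor minus remodeling within the Ets2-expressing label, against 1. The 75th percentile limit left 0 members there and 0 for the difference of the Ets2 differences (against 1), since fewer genes are then counted. It also left 1 pathway gene in the remodeling Ets2 comparison (against 2), 0 for tumor minus remodeling within the Ets2-expressing label (against 6) and 1 within the Ets2-deficient label (against 2). Averaging probe sets gave 1 pathway gene in the last of these and median centring 4. Averaging also ended the calls of Pik3cd and Shc1 within the Ets2-expressing label and added Mafg. Median centring added Dok1 in the remodeling Ets2 comparison. Between the settings it added Cish and Mafg within the Ets2-expressing label, and Cbl and Pim2 within the Ets2-deficient label. Quantile normalization added Cish and Vav1 within the Ets2-expressing label and Pim2 within the Ets2-deficient label. At 1.5-fold, 2 members were called in each of the 4 comparisons and 2 for the difference of the Ets2 differences. Pathway genes called at 1.5-fold were 4 in the tumor Ets2 comparison (against 0), 7 in the remodeling one, 18 for tumor minus remodeling within the Ets2-expressing label and 6 within the Ets2-deficient label. Median centring moved the median of all genes from 0.04 to 0.23 in the remodeling Ets2 comparison and from 0.01 to -0.31 for tumor minus remodeling within the Ets2-deficient label, because array medians differ.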
